A study of Mus musculus with 2 samples.

Results

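The class III region of the mouse major histocompatibility complex (MHC) was taken as 890 bins of 1 kb on chromosome 17, from 34500001 to 35390000 (mm9). Of these, 879 held a read in either library, among 2246042 such bins in the genome. The bins were chosen by position alone and not by their values. The study made chromatin immunoprecipitation sequencing (ChIP-seq) libraries from Th2 cells, a helper T cell type known for making interleukin 4. Splenic T cells of C57BL/6 mice, positive for CD4 and CD62L, had been stimulated for 5 days through CD3 and CD28 with IL-4 (10 ng/ml) and antibody to interferon gamma (2 µg/ml), then rested for 3 days. One library was precipitated with an antibody to acetylated lysines of histone H3 (H3KAc), and the control library from the same kind of culture with polyclonal rabbit IgG. Both groups shared the strain, tissue, stimulation and rest, and each was 1 library. How many mice contributed to each is not given in the sources used here. No marker expression was measured, so the Th2 label rests on the culture conditions.

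Acetylation of histone H3 loosens its hold on DNA and marks active promoters and enhancers, and antibodies to it therefore report where chromatin is open to transcription. The class III region lies between the class II and class I genes of the MHC. It is densely packed with genes of unlike roles, and most of them do not present antigen. Tnf encodes tumour necrosis factor, a cytokine made by activated T cells and macrophages. Its neighbours Lta and Ltb encode lymphotoxin alpha and lymphotoxin beta, which are needed for the formation of lymphoid organs. C4b, C2 and Cfb encode complement proteins that are made mainly in liver, and Notch4 is a receptor of blood vessel endothelium. Hspa1a and Hspa1b encode the inducible forms of the chaperone HSP70.

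The region definition places Tnf near 35.336 Mb and Hspa1a and Hspa1b near 35.1 Mb of mm9, and no other gene was placed on a bin. The RefSeq gene table used here is on GRCm38, so only names and order were taken from it. It lists 57 protein-coding genes from Notch4 to Ddx39b, with Ltb, Tnf and Lta as direct neighbours in that order. Promoter sequences were found for 44 of the 57 genes, with 58 promoters in all. The median GC content of the 250 bases before the start was 58.4% in these and 52.4% in all 32851 promoters. The lymphotoxin and Tnf promoters are shown because the windows around Tnf are described below. Each sequence is the 250 bases before the gene's start from RefSeq (GRCm38.p6), in the direction of the gene, on the plus strand for Ltb and the minus strand for the others. Capitals mark every match of GGGNNNNNCC, a loose form of the site of the transcription factor NF-κB, on either strand.
Ltb: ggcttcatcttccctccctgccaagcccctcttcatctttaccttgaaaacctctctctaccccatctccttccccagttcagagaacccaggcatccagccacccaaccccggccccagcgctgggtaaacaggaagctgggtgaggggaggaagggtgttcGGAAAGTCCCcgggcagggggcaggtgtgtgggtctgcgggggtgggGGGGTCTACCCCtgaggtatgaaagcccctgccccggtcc
Tnf: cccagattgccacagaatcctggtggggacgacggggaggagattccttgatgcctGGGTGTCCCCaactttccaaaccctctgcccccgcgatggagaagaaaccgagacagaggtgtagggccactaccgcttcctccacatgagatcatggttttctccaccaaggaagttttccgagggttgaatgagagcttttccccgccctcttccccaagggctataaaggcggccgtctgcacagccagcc
Lta: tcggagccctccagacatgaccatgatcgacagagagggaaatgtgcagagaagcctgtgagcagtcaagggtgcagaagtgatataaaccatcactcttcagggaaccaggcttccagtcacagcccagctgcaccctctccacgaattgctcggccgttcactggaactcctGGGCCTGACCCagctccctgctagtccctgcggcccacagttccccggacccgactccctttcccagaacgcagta
Matches on both strands may overlap, and at least 1 match was present in 45.8% of all promoters of this length. The Tnf promoter held it 194 bases before the start, read on either strand. TATAAA, the TATA box, was found on either strand in 12.4% of all promoters and 5.17% of the class III promoters. It lay 29 bases before the start of Tnf and 167 bases before that of Lta. GGAAA, the core bound by NFAT, was found in 55.6% of all promoters and 62.1% of the class III promoters. It had 3 matches before Tnf, 2 before Lta and 1 before Ltb. It overlapped a GGGNNNNNCC match before Ltb. These matches are letters in a window and do not show that a factor was bound.

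The promoters of Hspa1a and Hspa1b are shown because they are nearly copies of each other. Both are on the minus strand, and capitals mark the bases at which they differ.
Hspa1b: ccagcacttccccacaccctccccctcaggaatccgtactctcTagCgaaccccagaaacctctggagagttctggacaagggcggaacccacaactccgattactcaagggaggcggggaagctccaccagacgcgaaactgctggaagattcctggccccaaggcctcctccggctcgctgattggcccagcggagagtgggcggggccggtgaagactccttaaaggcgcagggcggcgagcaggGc
Hspa1a: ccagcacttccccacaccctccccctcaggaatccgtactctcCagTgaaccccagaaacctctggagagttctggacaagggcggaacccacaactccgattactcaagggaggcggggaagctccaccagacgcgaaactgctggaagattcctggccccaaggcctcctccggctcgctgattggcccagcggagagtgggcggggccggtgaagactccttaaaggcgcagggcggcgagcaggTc
Over the 300 bases of the table's entry, 250 before and 50 after the start, they were 98.67% identical. Counted from 1 at the left end, with the base of Hspa1a first, the 4 differences were C44T, T47C, T249G and C276T. Of the 266 stretches of 35 bases in the Hspa1a entry, 176 (66.2%) were present in the Hspa1b entry without a difference. The deposited reads were 35 bases long, so a read from such a stretch cannot be assigned to either gene by its sequence. GAANNTTC, part of the heat shock element, had 1 match 104 bases before either start. It was present in 6.69% of all promoters and 8.62% of the class III promoters.

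The H3KAc library held 21845451 reads at 19711169 distinct positions and the IgG library 7626703 reads at 1897666 positions. Each distinct position was counted 1 time and moved 100 bp along its strand, and levels are reads per 1000000 distinct positions of the library (RPM). An IgG read is worth 0.527 RPM, so the depth of IgG set the precision of every ratio. With 1 library in each group there is no p-value and no replicate check. All intervals are exact 95% intervals that cover counting error only, and each compares these libraries and not the conditions.

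Both libraries were higher in the class III region than in the rest of the genome, by factors of like size. The region gave 20264 H3KAc reads and 1815 IgG reads. H3KAc was 1.17 RPM per covered kb against 0.445 in the rest of the genome, 2.63-fold higher (2.59 to 2.67). IgG was 1.09 RPM per covered kb against 0.445, 2.45-fold higher (2.33 to 2.56). The pooled H3KAc over IgG ratio was therefore close to 1, at 1.07 (1.02 to 1.13). Against the rest of chromosome 17, the region was 2.23-fold higher in H3KAc (2.20 to 2.26) and 1.96-fold higher in IgG (1.87 to 2.06). The median covered bin of the region held 17 H3KAc reads, against 6 in the rest of the genome, and 30.0% of its covered bins had no IgG read, against 60.5%.

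The adjoining windows of equal length resembled the region in level. The window to the left, from 33610001 to 34500000, held 18762 H3KAc and 1432 IgG reads, with a ratio of 1.26 (1.20 to 1.33). The window to the right, from 35390001 to 36280000, held 16314 and 1385 reads, with a ratio of 1.13 (1.07 to 1.20). Per covered kb, the region was 1.06-fold (1.04 to 1.09) above the left window and 1.17-fold (1.14 to 1.19) above the right window in H3KAc. It was 1.25-fold (1.16 to 1.34) and 1.23-fold (1.15 to 1.32) above them in IgG. The comparison with the left window turned to 0.949 when H3KAc was thinned to the number of IgG reads, with fewer bins then covered.

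**Figure D1:**
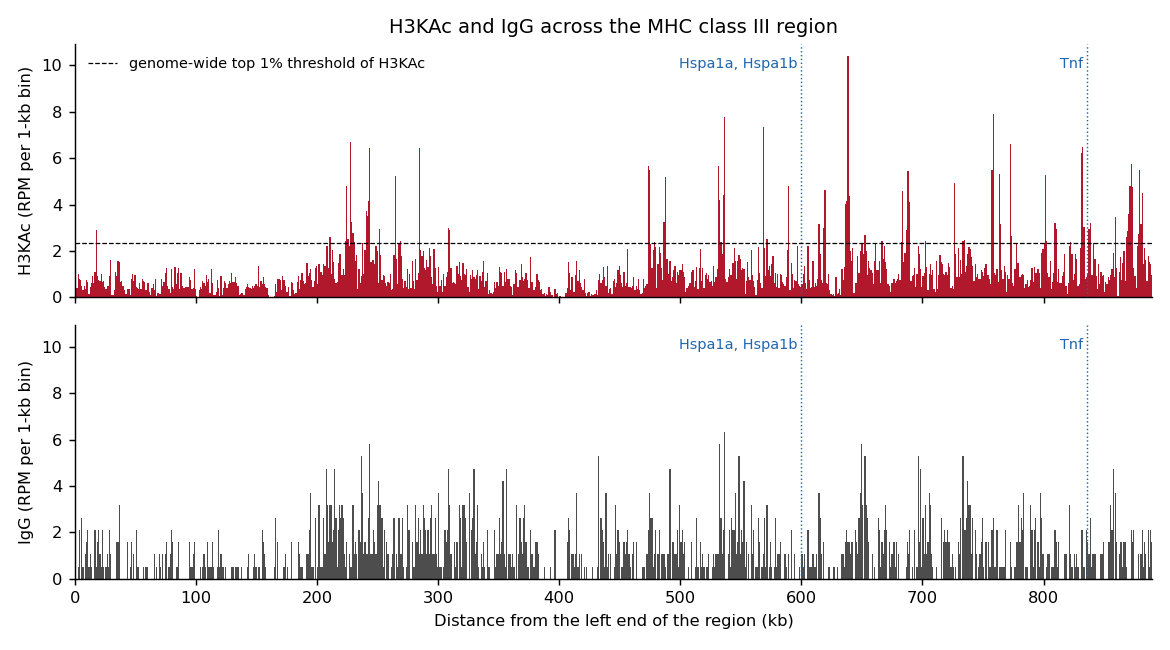
H3KAc (upper panel) and IgG (lower panel) in RPM for each of the 890 bins, against the distance in kb from the left end of the region. The dashed line is the genome-wide top 1% threshold of H3KAc (2.33 RPM), dotted lines mark the stated positions of Hspa1a and Hspa1b and of Tnf, and H3KAc forms narrow peaks of up to 10.4 RPM in the right part and between about 200 and 300 kb.

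H3KAc was unevenly spread along the region, as the levels in 10 segments of 89 kb show. The first 2 segments, up to 34678000, had 0.654 and 0.509 RPM per covered kb in H3KAc and 0.663 and 0.464 in IgG. The third segment, from 34678001, rose to 1.54 in H3KAc and 1.56 in IgG. In these 3 segments the intervals of the ratio held 1. In the fourth segment and the fifth, from 34767001 to 34945000, H3KAc was below IgG. Their levels were 1.06 and 0.553 RPM per covered kb in H3KAc against 1.54 and 0.908 in IgG, with ratios of 0.691 (0.607 to 0.790) and 0.609 (0.510 to 0.731). From the sixth to the ninth segment H3KAc lay between 1.23 and 1.52 RPM per covered kb and the ratio between 1.14 and 1.20, with an interval that held 1 in the sixth segment and in the ninth. The last segment, from 35301001 to 35390000, contains the Tnf position and had the highest H3KAc level and the highest ratio of the 10. It had 1.76 RPM per covered kb in H3KAc and 0.965 in IgG, a ratio of 1.82 (1.56 to 2.15).

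**Figure D2:**
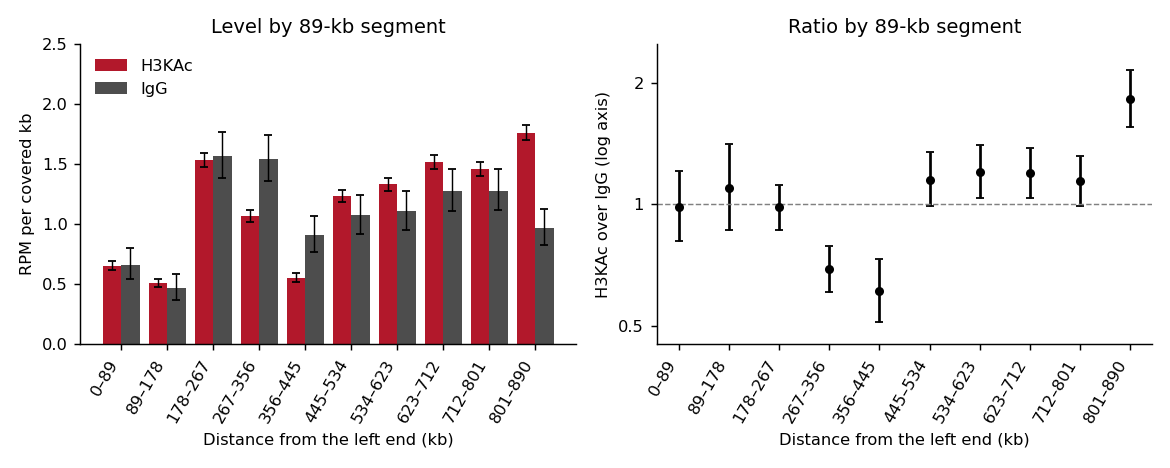
Left, H3KAc and IgG in RPM per covered kb for 10 segments of 89 kb, with exact Poisson 95% intervals. Right, the H3KAc over IgG ratio of each segment with its exact 95% interval on a log axis; the fourth segment and the fifth lie below 1 and the last, with 1.82, lies above the others.

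The stretches that stayed low in H3KAc reads were short. No bin reached the genome median of 6 H3KAc reads from 34897001 to 34906000, a 9-kb stretch with 12 H3KAc reads and no IgG read. The same held from 34921001 to 34930000, also 9 kb, with 25 H3KAc and 2 IgG reads, and for 6 kb from 34659001 to 34665000, with 3 and 1 reads. The first and the last of these contain the only stretches of 2 bins or more without a read in either library. Both empty stretches were 4 kb long, from 34901001 to 34905000 and from 34660001 to 34664000. IgG held few reads in these stretches too, so the counts alone do not show low acetylation, which was not tested.

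The strongest acetylation sat in bins that rank at the top of the whole genome. A bin was placed in the top 1% when it held at least 46 H3KAc reads (2.33 RPM), the 99th percentile of covered bins. IgG did not enter this choice. The region held 84 such bins among 879 covered bins, or 9.56% (7.69% to 11.7%), against 1.02% of all covered bins of the genome. The left window held 74 of 866 (8.55%, 6.77% to 10.6%) and the right window 53 of 826 (6.42%, 4.84% to 8.31%), so the intervals of all 3 overlapped. The 84 bins were 9.44% of the region and carried 32.6% of its H3KAc reads but 15.6% of its IgG reads. In them H3KAc was 3.99 RPM per kb and IgG 1.78, a ratio of 2.24 (1.99 to 2.53). The other bins had 0.872 RPM per covered kb in H3KAc and 1.01 in IgG, a ratio of 0.859 (0.815 to 0.906). Genome-wide outside the region, the top 1% bins had a ratio of 1.93 (1.92 to 1.94) and the other covered bins 0.953 (0.951 to 0.954). Since the bins were chosen for high H3KAc, their H3KAc level is biased upwards. When bins were chosen on plus-strand reads and measured on minus-strand reads, 72 bins had a ratio of 2.33 (1.94 to 2.83). With the strands exchanged, 79 bins had 2.27 (1.90 to 2.72). Both strands come from the same libraries and share local depth, so this choice addresses counting error only and is not an independent check. IgG moved with H3KAc: across the 890 bins, which share library and local depth, Pearson's r between their reads was 0.34 and Spearman's rho 0.50, given as a description.

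Joining top 1% bins across gaps of no more than 1 bin gave 41 runs. There were 20 runs of a single bin, 12 of 2 kb and 9 that spanned 3 kb or more. The median distance from a run to the next was 8.5 kb and the longest 192 kb, between 34518000 and 34710001. In 20 runs the lower bound of the H3KAc over IgG ratio was above 1, in 20 the interval held 1, and in 1 the whole interval lay below 1. The share of runs above IgG differed with their width: 8 of the 9 widest had a lower bound above 1, against 7 of the 12 runs of 2 kb and 5 of the 20 single bins. Wider runs hold more reads, which narrows their intervals. No genome-wide share of such runs stands beside these counts, so they describe the region and do not set it apart. Among the single bins, the 5 with a lower bound above 1 held 95 to 145 H3KAc reads and the other 15 held 46 to 68.

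**Figure D3:**
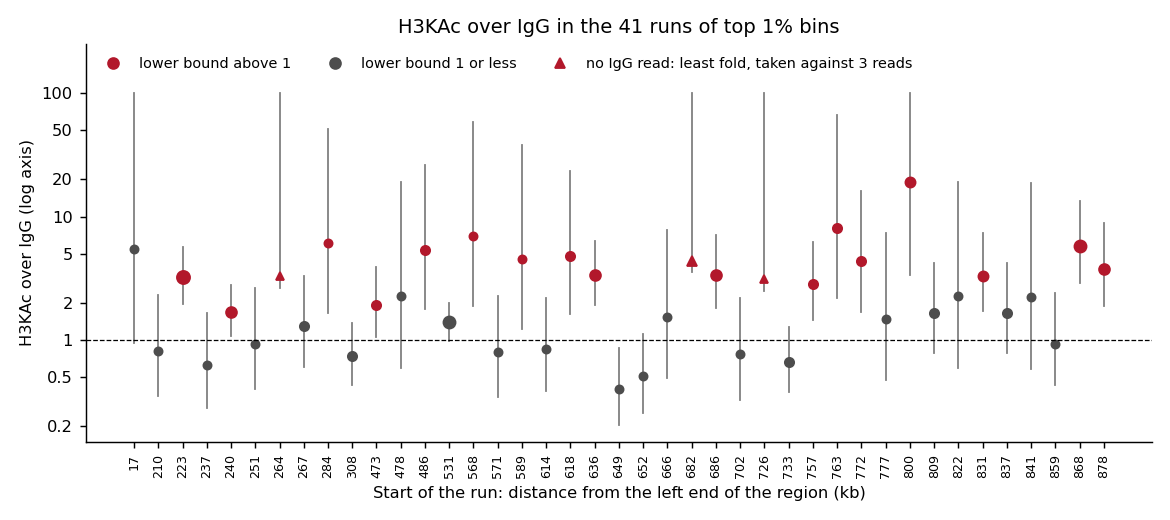
H3KAc over IgG ratio on a log axis for the 41 runs of top 1% bins, ordered by their start in kb from the left end of the region; larger symbols are wider runs. Vertical lines are exact 95% intervals, drawn up to 100, triangles are the 3 runs without an IgG read, and the 20 runs in red have a lower bound above 1.

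The run with the most H3KAc reads, 8 kb from 34723001 to 34731000, held 535 H3KAc and 16 IgG reads. That is 27.1 RPM (24.9 to 29.5) against 8.43 RPM in IgG, a ratio of 3.22 (1.96 to 5.67). Its H3KAc reads per bin were, from left to right, 48, 95, 50, 44, 132, 64, 55 and 47, and its IgG reads 1, 3, 0, 2, 1, 1, 6 and 2. It thus had separate crests in its second bin and in the fifth, with little IgG under either. A little further right, the 4-kb run from 34740001 to 34744000 climbed over bins of 73, 69, 82 and 127 H3KAc reads. Here IgG climbed too, with 2, 2, 5 and 11 reads, and the ratio was 1.69 (1.08 to 2.80).

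A pair of runs of like H3KAc height differed in IgG. The 6-kb run from 35031001 to 35037000 held 519 H3KAc reads, with 112, 83, 47, 37, 87 and 153 in its bins, so that both ends were high and the middle low. Its 36 IgG reads, the most in any run, were highest in the last bin and next to the first, with 2, 11, 5, 2, 4 and 12 in the same bins. Its ratio was 1.39 (0.989 to 2.00) and did not separate from 1, though with every deposited read counted it was 1.70 (1.40 to 2.09). The 6-kb run from 35368001 to 35374000 held 480 H3KAc reads, with 51, 56, 71, 95, 113 and 94 in its bins, but 8 IgG reads, with 1, 0, 0, 0, 4 and 3. Its ratio was 5.78 (2.91 to 13.5). The H3KAc levels of these runs had overlapping intervals, at 26.3 RPM (24.1 to 28.7) and 24.4 RPM (22.2 to 26.6), while the intervals of their ratios did not overlap. With minus-strand reads alone the intervals of the ratios did overlap, at 1.02 to 3.39 and 2.44 to 35.3. Under the other settings tried for runs they did not.

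The highest bin of the region lay in the 4-kb run from 35136001 to 35140000. Its bins held 79, 82, 205 and 86 H3KAc reads and 3, 4, 3 and 3 IgG reads, a ratio of 3.35 (1.94 to 6.34) over the run. The bin from 35138001 to 35139000, with 10.4 RPM, was exceeded by 0.0102% of covered bins of the genome. Within it, the 100 bp from 35138401 to 35138500 held 43 H3KAc reads, and the reads fell off to 6 in the 100 bp from 35138801. In the run as a whole 250 H3KAc reads were on the plus strand and 202 on the minus strand.

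The other named runs varied in shape. The runs from 35186001 to 35190000 (57, 107, 107 and 81 H3KAc reads per bin, 1, 3, 2 and 4 IgG reads) and from 35378001 to 35382000 (54, 108, 62 and 89, and 2, 0, 2 and 4) were flat-topped or had a pair of crests. Their ratios were 3.39 (1.82 to 7.13) and 3.77 (1.89 to 8.80). The 2-kb run from 35257001 to 35259000 was sharper, with 108 and 156 H3KAc and 4 and 5 IgG reads, a ratio of 2.82 (1.47 to 6.24). A ratio of 1.93 (1.06 to 3.91) was found for the 2-kb run from 34973001 to 34975000, and 4.38 (1.68 to 16.2) for that from 35272001 to 35274000. The first of these did not separate from 1 on either strand alone or with H3KAc thinned to the IgG number. The 3-kb run from 35300001 to 35303000 had 46, 104 and 48 H3KAc reads and 0, 0 and 1 IgG read. Its ratio of 19.1 (3.38 to 757) was the highest of the runs with an IgG read and rested on that read. At the other end, the single bin from 35149001 to 35150000 held 46 H3KAc reads, the least a top 1% bin can hold, and 11 IgG reads, a ratio of 0.403 (0.205 to 0.862).

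Single bins were called enriched when they held at least 5 reads in both libraries together and the lower bound of the ratio was above 2. By this rule 9 of 818 tested bins were called, 1.10% (0.504% to 2.08%), against 0.0836% of the tested bins of the genome. In the left window 1 of 776 was called (0.129%, 0.00326% to 0.716%), and in the right window 0 of 751 (0% to 0.490%). The interval of the left window overlapped that of the region, and that of the right window lay just below it. The count of 0 in the right window arises from a rule on intervals with no p-value. With IgG over 11 bins, 45 bins were called there. A bin without an IgG read needs 79 H3KAc reads to be called, so the rule can reach only the highest bins at this depth, and all 9 were top 1% bins. Of the 9, 7 had no IgG read, for which a limit of 3 reads (1.58 RPM) was used. Taken against 3 reads, H3KAc in these 7 was at least 2.89-fold to at least 3.47-fold higher than IgG. The lower bounds of their 95% intervals, on which the calls rest, were smaller, at 2.30 to 2.77. From left to right they began at 34764001, 35119001, 35183001, 35226001, 35301001, 35371001 and 35379001. The called bin from 34727001 to 34728000 held 132 H3KAc reads and 1 IgG read, and the highest bin of the region 205 and 3, a ratio of 6.58 (2.22 to 32.2). The ratios of called bins are biased upwards by the choice of bins with few IgG reads.

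When IgG was averaged over the 11 bins centred on each bin, 43 of the 818 bins (5.26%, 3.83% to 7.02%) were called with a lower bound above 2, against 2.15% of the tested bins of the genome. In the left window the share was 5.93% and in the right window 5.99%, with intervals that overlapped that of the region (4.37% to 7.83% and 4.40% to 7.94%). All 9 bins of the first rule were among the 43. Of the 43, 41 (95.3%) were top 1% bins, and they made up 48.8% of the 84. The remaining top 1% bins did not pass this rule. The widest stretches so called were 4 kb each, from 35136001, from 35186001 and from 35370001.

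The 4 bins with the most IgG reads, 11 or 12 each, were all top 1% bins of H3KAc. The bin from 35036001 to 35037000 held 12 IgG and 153 H3KAc reads, a ratio of 1.23 (0.683 to 2.43). Those from 34743001 to 34744000 and from 35032001 to 35033000 held 11 IgG reads each, with 127 and 83 H3KAc reads and ratios of 1.11 (0.601 to 2.28) and 0.726 (0.386 to 1.51). The bin from 35149001, described above, also held 11. Since these bins were chosen for many IgG reads, their ratios are biased downwards.

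Around the Tnf position, H3KAc was higher on either side of a stretch that lay near the region's median. The 10 kb from 35331001 to 35341000 held 523 H3KAc reads (26.5 RPM, 24.3 to 28.9) and 26 IgG reads (13.7 RPM, 8.95 to 20.1), a ratio of 1.94 (1.31 to 2.99). Its bins held, from left to right, 123, 128, 60, 16, 17, 20, 58, 63, 19 and 19 H3KAc reads. The IgG reads in the same bins were 4, 4, 1, 0, 4, 3, 2, 5, 1 and 2. The first 3 bins form a run from 35331001 to 35334000 with 311 H3KAc and 9 IgG reads and a ratio of 3.33 (1.73 to 7.34). Its highest bin, with 128 reads, was exceeded by 0.103% of covered bins of the genome. The run from 35337001 to 35339000, on the other side of the stated Tnf position, held 58 and 63 H3KAc reads against 2 and 5 IgG reads. Its ratio of 1.66 (0.783 to 4.23) did not separate from 1. In between, from 35334001 to 35337000, no bin held more than 20 H3KAc reads. These bins, with 16, 17 and 20 reads, lay near the region's median of 17, against 6 in the rest of the genome. They were exceeded by 12.8%, 11.3% and 7.88% of covered bins of the genome. In the 4 kb centred on the stated position the ratio was 1.19 (0.603 to 2.66). Of the 10 bins, 5 were in the top 1%, 2 were called with IgG over 11 bins and 0 with IgG in the same bin.

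At a step of 100 bp, the H3KAc reads around Tnf fell into 3 groups. On the left, from 35331001 to 35333400, 22 of 24 steps held at least 7 H3KAc reads, and the highest, from 35332901 to 35333000, held 25. To the right of the stated position there were smaller crests of 12 reads at 35337201 and at 35337401 and of 16 reads at 35338401, with as few as 2 reads per 100 bp between the last of these and the others. The steps of the crests at 35337201 and 35337401 held no IgG read, like most steps of this window. With 2.06 IgG reads per covered kb of the region, a step without one does not set a crest apart. After the crest at 35338401, steps of 11 and 10 H3KAc reads held 3 and 2 IgG reads. The run that holds these smaller crests did not separate from IgG, with a ratio of 1.66 (0.783 to 4.23). The stated position is approximate, so none of the 3 groups was assigned to Ltb, Tnf or Lta, whose promoter sequences are given above.

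**Figure D4:**
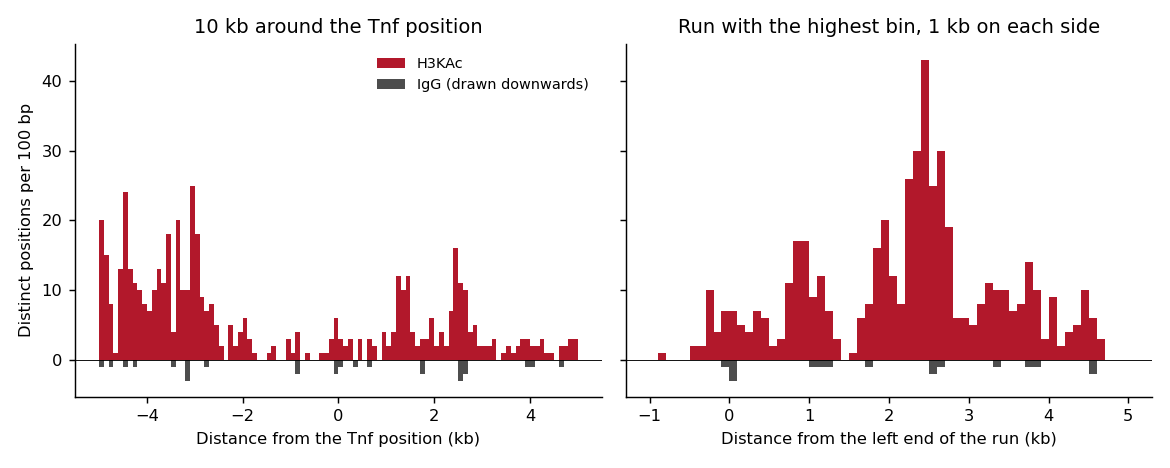
Distinct positions per 100 bp for H3KAc (upwards) and IgG (downwards, same scale). Left, the 10 kb around the stated Tnf position, with 3 groups of H3KAc reads; right, the run with the highest bin of the region and 1 kb on each side, with a crest of 43 reads.

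Around the Hspa1a and Hspa1b position, H3KAc and IgG were both lower than around Tnf. In the 10 kb, H3KAc was 0.837 RPM per kb and IgG 0.316, against 0.445 per covered kb for each in the rest of the genome. H3KAc was thus above that level and IgG below it. The 10 kb from 35095001 to 35105000 held 165 H3KAc reads (8.37 RPM, 7.14 to 9.75) and 6 IgG reads (3.16 RPM, 1.16 to 6.88), a ratio of 2.65 (1.19 to 7.32). Its bins held 14, 44, 11, 10, 9, 11, 20, 27, 12 and 7 H3KAc reads and 0, 0, 0, 1, 0, 2, 1, 2, 0 and 0 IgG reads. The bin from 35096001 to 35097000, with 44 reads, stood 2 reads below the top 1% threshold and was the only 1 of the 10 called with IgG over 11 bins. H3KAc in the Tnf window was 3.17-fold higher than here (2.66 to 3.80), and IgG 4.33-fold higher (1.74 to 12.9). With windows of 20 kb, the H3KAc difference was 2.25-fold (1.98 to 2.56). In the 4 kb centred on the stated position the ratio was 1.20 (0.442 to 4.59). The position is rounded and the genes are a pair, so the window may miss parts of either. As shown above, 66.2% of 35-base stretches at the start of Hspa1a also occur at Hspa1b, and how reads with several alignments were treated is not given in the sources used here. Lost or misplaced reads in this window were not tested.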

How the data were processed

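ChIP-seq reads of 1 H3KAc library and 1 IgG library were used as deposited. Per the note deposited with the files, each row is 1 aligned read with its start, end and strand, and the remaining columns are placeholders. The unit is a read position, with no normalization by the authors. Reads were aligned to mm9 with Bowtie, per the submitters' processing notes. The sources used here give no version, no filter and no treatment of reads with several alignments. Per the labels' protocols, chromatin was fixed in 0.4% formaldehyde, 7 µg of antibody was used, and DNA of about 200 bp was sequenced from 1 end, after PCR and then gel purification.

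Reads sharing chromosome, strand and 5′ end were collapsed to 1 count, since no molecular identifier marks PCR copies. The region had 1.11 reads per position in H3KAc and 4.20 in IgG. Reads were moved 100 bp along their strand, to about the middle of the fragment, and counted in 1-kb bins. Ratios have exact conditional binomial (Clopper-Pearson) 95% intervals, levels exact Poisson intervals and shares of bins exact binomial intervals. A fold against 0 IgG reads was computed against 3 reads over the stretch, a limit separate from these intervals. Named stretches were the 12 runs with the most H3KAc reads, the 5 widest runs (all among the 12), the bins called with IgG in the same bin, both gene windows, the 3 bins with the most IgG reads (4 with ties), the 3 longest stretches under the genome median, and empty stretches. The runs without IgG reads, the single-bin groups, the bin with the lowest ratio, the 89-kb segments and the choice by strand were added after the values had been seen. The region, lists and rules were chosen with earlier results of these data known. Planned promoter levels for listed genes were not analysed here, since no annotation of mm9 was used. The calling was tested on simulated data. Work was done in Python 3.11.15 with matplotlib 3.10.9, pandas 2.3.3, scipy 1.17.1 and numpy 2.4.6.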

Additional observations from a re-analysis of the deposited data

Results flagged for a closer look

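Reads removed as repeats of a position lie outside the counts above. In the whole region they were fewer in H3KAc, at 102 per 1000000 deposited reads, than in IgG, at 763. The whole libraries differed likewise, so this is not particular to the region. Deposited reads per position were 1.11 in H3KAc and 4.02 in IgG over the genome, against 1.11 and 4.20 in the region. Of 478 bins with at least 5 removed reads, 7 held more of them in H3KAc relative to the libraries' deposited reads, with a lower bound above 1. The bin from 35138001 to 35139000, the highest of the region in H3KAc, had 60 such reads in H3KAc and 4 in IgG, and the ratio was 5.24 (1.94 to 19.8). The other 6 bins had no removed IgG read. All of them except that from 35188001 held no IgG read at all, so none could be removed there. The bins from 35183001, 35226001 and 35379001 held 16 removed H3KAc reads each, that from 35188001 held 13, that from 35301001 held 22 and that from 35371001 held 24. All but the bin from 35188001 were also called enriched with IgG in the same bin, a call that rests on the same lack of IgG reads in most of them. The share of such bins in the whole genome is not given here. Copies of a position count as independent in these intervals, which may be too narrow.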

How the results depend on the processing

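Depth limits these results: IgG had 2.06 reads per covered kb of the region, and single ratios rest on few reads. Instead of 9 bins enriched over IgG in the same bin there were 70 when every deposited read counted, 1 and 0 on the plus and the minus strand, 3 with 500-bp bins, and 0 and 36 with lower bounds above 4 and above 1. The 43 bins with IgG over 11 bins became 28 with H3KAc thinned to the IgG number, 11 and 131 with lower bounds above 4 and above 1, and 82 with 500-bp bins. The 84 top 1% bins became 140 with 500-bp bins, and 40 and 154 with the top 0.5% and top 2%. Bins of 500 bp are more numerous, so a higher count of them is not a higher share. Shares over the genome were not computed for the calls over IgG under these settings, so the counts describe the region only. The 2.63-fold level over the rest of the genome became 1.82 with thinned H3KAc, 2.39 on either strand alone. Against the left window, 1.06 turned to 0.949 with thinned H3KAc and became 1.04 with either strand alone. Against the right window, 1.17 became 1.10 with thinned H3KAc and 1.14 with plus-strand reads. Thinning and single strands leave fewer covered bins, by which these levels are divided. The ratio around Tnf became 1.19 in a 4-kb window. The other 46 values for these results kept their direction and stayed within their interval or within 1.5 times the count. Some of these no longer separated from 1. Around Hspa1a and Hspa1b the ratio was 1.20 (0.442 to 4.59) in a 4-kb window and 2.03 (0.765 to 7.64) with minus-strand reads. The pooled ratio was 1.06 (0.997 to 1.13) with thinned H3KAc and 1.07 (0.997 to 1.14) with plus-strand reads. For the 12 named runs, the ratio stayed within its interval in all 59 alternatives that gave a value, but its lower bound crossed 1 in 7. It fell below 1 for the run from 34973001 with thinned H3KAc (0.781), plus-strand (0.844) and minus-strand reads (0.813), and with minus-strand reads for those from 34740001 (0.733) and 35257001 (0.883). It rose above 1 for the run from 35031001 with every deposited read (1.40) and minus-strand reads (1.02). With plus-strand reads the run from 35300001 had no IgG read. No paired analysis was possible because each group was 1 library.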
